A study of Homo sapiens with 7 samples.

Results

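The E2 ubiquitin-conjugating enzymes described here are the genes whose symbol begins with UBE2, with pseudogenes left out, in HSC-3 cells exposed to heat. Each gene was represented by 1 probe set, the one of its single-gene probe sets with the highest mean log2 intensity over the 7 arrays. This choice found 28 of the 19775 genes measured by such probe sets, of which 26 encode a protein and 2 are RNA genes, UBE2D3-AS1 and UBE2E2-DT. The 28 genes were covered by 77 probe sets. Other protein-coding UBE2 genes of the gene table, UBE2D3 among them, had no single-gene probe set and were not analysed here.

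HSC-3 is an established line of human oral squamous carcinoma cells. Cultures were held for 90 min at 42 °C and then returned to 37 °C for 0, 6 or 12 h, or held for 90 min at 44 °C with the same 3 recovery times. The reference was untreated cells at 37 °C, and the same control array served all heated arrays. No recovery time is given for this control, so a difference by recovery time and one by time in culture cannot be told apart. Each of the 7 RNA preparations was read on 1 Affymetrix Human Genome U133 Plus 2.0 array, which carries 54675 probe sets. With 1 array per condition no spread between replicates was measured, no test was made and no p-value or error is given, so each value describes 1 array and 1 line.

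Ubiquitin is passed along a relay of enzymes. An E1 enzyme activates it at the cost of ATP, an E2 carries it as a thioester on its active-site cysteine, and an E3 ligase brings the charged E2 to the substrate. The E2 largely sets which kind of chain is built, and therefore whether the substrate goes to the proteasome or takes part in signalling or DNA repair. Heat unfolds proteins, and cells clear part of the damaged protein through this relay. Some UBE2 proteins carry ubiquitin-like modifiers such as NEDD8 or ISG15 in place of ubiquitin.

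Array levels differed before any gene was considered. The median log2 shift from the control, taken over 20902 probe sets that never went under the floor, was -0.13, 0.24 and 0.16 at 42 °C after 0, 6 and 12 h. At 44 °C it was 0.40, -0.07 and -0.35 after those times. The floor was the pooled median intensity of 21.4, and lower values were set to it, so a difference from an array under the floor is a lower bound. The words rose and fell are kept for genes that passed 2-fold in 1 direction under each of 3 scalings, namely the deposited values, quantile-normalized values and values shifted to a common median. Chaperone genes of the heat shock response were read as a check of the treatment. HSPA6 had 12566, 262 and 18.9 on the 42 °C arrays and 5143, 7596 and 8788 on the 44 °C arrays, against 4.82 in the control, and DNAJB1 had 9949, 1354 and 1299 and then 7110, 7004 and 6989, against 881. DNAJB1 was above the control on all 6 heated arrays and HSPA6 on 5, since at 42 °C, 12 h HSPA6 was below the floor, as in the control. Of 6 listed squamous epithelial markers 3 were measured, KRT5, KRT14 and CDH1. These 3 were bright on all arrays, with a summed intensity of 19153 to 27702 in heated cells against 19067 in the control. Of 4 fibroblast markers LUM was below the floor on all 7 arrays, DCN and PDGFRB passed it on some arrays, and COL1A1 read 204 to 307 in heated cells against 139 in the control and rose at 44 °C, 6 h. The 4 fibroblast markers summed to 220 to 384 in heated cells, against 175 in the control. Of 3 leukocyte markers measured PTPRC was below the floor throughout, CD3E passed it on some arrays, and CD14 rose at 44 °C, 12 h, to 43.5 against 1.92 in the control. These 3 summed to 35.5 to 61.4 in heated cells, against 31.1 in the control. Of 3 endothelial markers VWF and CDH5 were below the floor throughout, PECAM1 read 30.6 to 51.2 in heated cells against 39.9 in the control, and the sum was 37.1 to 63.2 against 53.2. The part of these markers in the results was not tested.

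Of the 28 UBE2 genes, 26 reached the floor on at least 1 array, 25 of them reached 4 times the floor, 85.4, and are called bright here, and 23 were that bright on all 7 arrays. UBE2QL1 and UBE2E2-DT stayed below the floor everywhere, with highest intensities of 16.3 and 8.37. UBE2U passed the floor only on the 44 °C, 12 h array (24.7) and the control (23.9).

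Of the 26 UBE2 genes that reached the floor 2 passed the rule in any of the 9 comparisons, 1 RNA gene and 1 protein-coding gene, while 17.3% of all 14973 genes that reached the floor did. These shares were not matched for brightness. The bright UBE2 genes had a median of mean intensities of 1400, against 345 over all bright genes. UBE2D3-AS1 rose on the 42 °C arrays at 0 and 6 h. UBE2O fell on the 44 °C array at 12 h. The other 24, all of which encode proteins, did not pass the rule in any comparison with the control or between temperatures. The upstream sequences of UBE2D3-AS1 and UBE2O are shown because they are the 2 genes that passed. Each is the 250 bases before the annotated start, from RefSeq on GRCh38.p14, 5′ to 3′ on the gene's own strand, and capitals mark each GAA or TTC, the unit that a heat shock element repeats in alternating orientation.
UBE2D3-AS1, chr4:102827805-102828054, plus strand: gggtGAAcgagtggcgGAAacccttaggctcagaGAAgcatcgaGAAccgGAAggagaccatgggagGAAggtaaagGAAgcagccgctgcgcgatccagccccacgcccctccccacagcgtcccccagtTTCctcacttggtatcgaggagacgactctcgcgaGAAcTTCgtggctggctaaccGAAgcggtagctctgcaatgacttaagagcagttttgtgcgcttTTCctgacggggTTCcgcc
UBE2O, chr17:76453153-76453402, minus strand: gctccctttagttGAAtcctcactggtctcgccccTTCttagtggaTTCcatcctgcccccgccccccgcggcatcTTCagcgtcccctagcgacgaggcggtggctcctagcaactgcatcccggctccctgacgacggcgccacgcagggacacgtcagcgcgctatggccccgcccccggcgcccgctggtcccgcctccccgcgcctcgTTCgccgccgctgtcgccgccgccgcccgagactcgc

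The upstream bases of UBE2D3-AS1 held 13 GAA or TTC triplets at 59.2% GC, and those of UBE2O held 5 at 72% GC. Neither held a complete heat shock element, searched on both strands as GAA, NN, TTC, NN and GAA in a row, where N is any base. The promoter table, which runs from 250 bases before to 50 bases after each start, held 30 promoters for 23 of the 28 genes. UBE2B, UBE2C, UBE2H, UBE2Q1 and UBE2V2 were not in it. That element was in 0 of the 30 UBE2 promoters and in 0.49% of all 35116 promoters of the table. The CCAAT box, searched as CCAAT or ATTGG, was in 7 of the 30 (23.3%), those of UBE2E1, UBE2E3, UBE2F, UBE2S, UBE2T, UBE2U and UBE2Z, and in 34.6% of all promoters. UBE2 promoters had a median GC content of 73.2%, against 58.7% over all promoters of the table. A match or its absence describes only the letters in these windows.

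UBE2D3-AS1 is an RNA gene that lies inside UBE2D3 on the opposite strand, and UBE2D3 encodes one of the broadly acting ubiquitin E2s. Its intensity was 118, 94.5 and 45.1 at 42 °C after 0, 6 and 12 h and 34.6, 26.9 and 29.3 at 44 °C after those times, against 31.2 in the control. All 3 values at 42 °C lay above the other 4 arrays, whose values were close to the floor. At 42 °C, 0 h it was 3.78-fold higher than the control (log2 difference 1.92, and 2.17 after quantile normalization), and it was the only UBE2 gene to rise there, where 1.46% of all 14973 genes that reached the floor rose and 3.02% fell. At 42 °C, 6 h it was 3.03-fold higher (1.60, and 1.43 after quantile normalization), again the only UBE2 gene to rise, where 1.36% of all genes rose and 1.92% fell. In RNA of whole cultures, a change in how many cells hold a transcript and a change in its amount per cell cannot be told apart. At 42 °C, 12 h the difference was 0.53, and 0 UBE2 genes passed the rule against 0.955% of all genes that rose and 1.33% that fell.

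Between temperatures the same gene stood apart at the early times. At 0 h it was 3.41-fold lower at 44 °C than at 42 °C (log2 difference -1.77, and -2.54 after quantile normalization), the only UBE2 gene to pass the rule, where 2.97% of all genes were higher and 0.608% lower. At 6 h it was 3.51-fold lower (-1.81, and -1.42 after quantile normalization), again alone among UBE2 genes, where 1.68% of all genes were higher and 4.03% lower. UBE2D3-AS1 has a single probe set, so no other set of probes was at hand to compare with it. The annotation used here does not say which strand its probes read, so a signal from UBE2D3 transcripts cannot be told apart from one of the antisense gene.

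UBE2O encodes a large enzyme that works as an E2 and an E3 in 1 chain and removes unassembled proteins. UBE2O intensity was 51.5, 73.3 and 64.9 at 42 °C after 0, 6 and 12 h and 113, 60.4 and 2.60 at 44 °C, against 77.2 in the control. The 44 °C arrays held both the highest and the lowest value of the 7. At 44 °C, 12 h it was at least 3.62-fold lower than the control (log2 difference -1.85) and at least 3.04-fold lower than at 42 °C, 12 h (-1.60). It was the only UBE2 gene to pass the rule in these comparisons, where 1.7% of all genes rose and 2.94% fell against the control, and 1.76% were higher and 3.15% lower at 44 °C than at 42 °C.

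At 0 h UBE2O was 2.19-fold higher at 44 °C than at 42 °C on the deposited scale, where 17.5% of all genes were past 2-fold, and its log2 difference of 1.13 became 0.49 after quantile normalization. The UBE2O values are those of a dim probe set. It read under 85.4 on each array behind the differences at 12 h. Its other probe set read 5.60, 27.1 and 47.97 at 42 °C and 45.2, 6.77 and 9.47 at 44 °C, against 19.9 in the control, which was itself below the floor. The mean of both probe sets gave a log2 difference of -0.93 at 44 °C, 12 h against the control, which does not pass 2-fold.

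**Figure D1:**
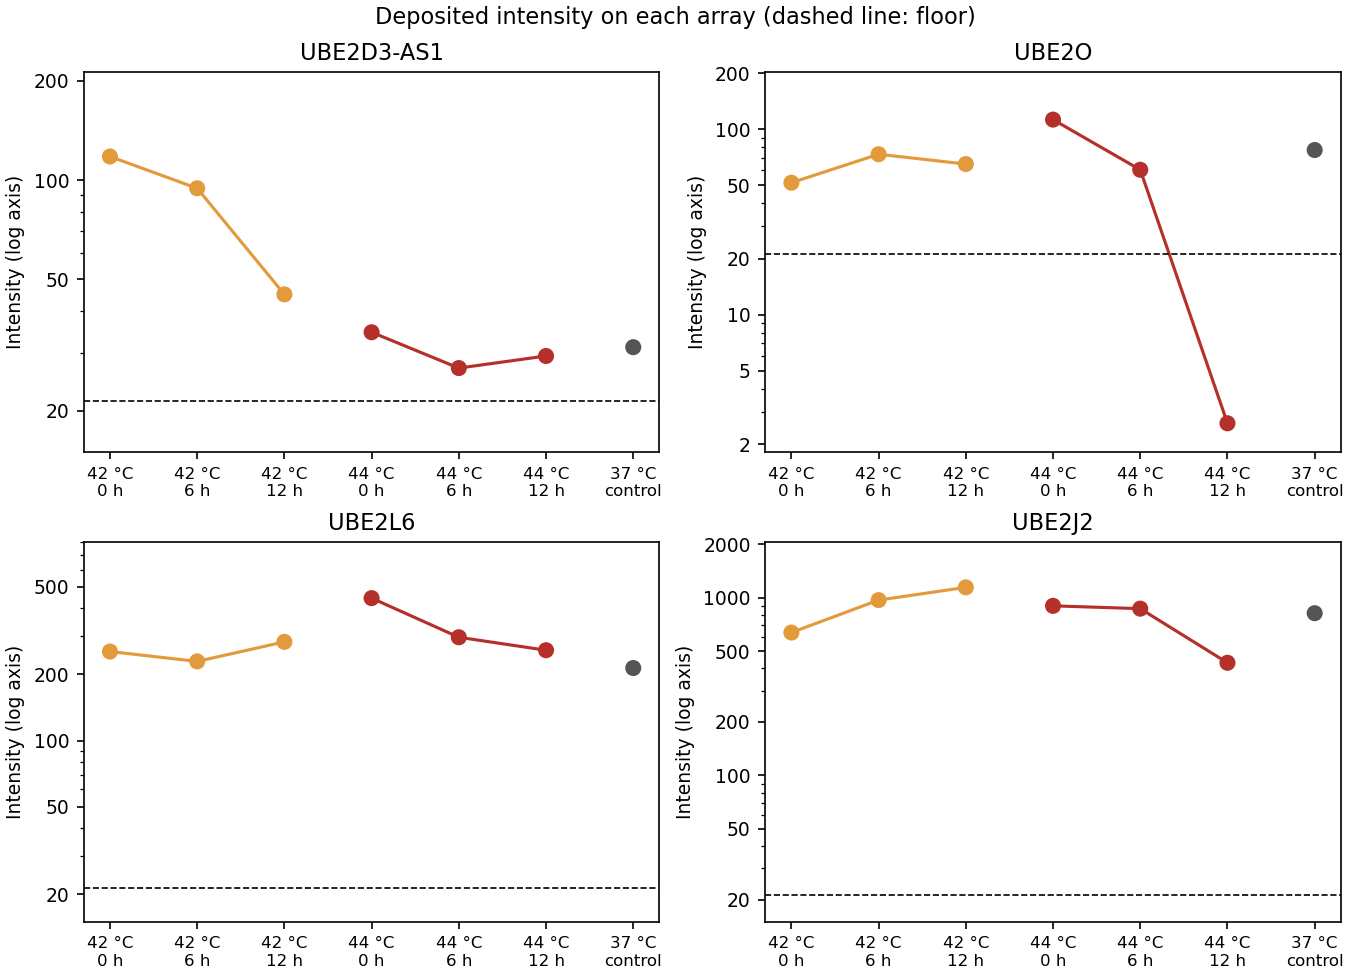
Deposited intensity (log axis) of UBE2D3-AS1, UBE2O, UBE2L6 and UBE2J2 on the 42 °C arrays (orange), the 44 °C arrays (red) and the control (grey), 1 point per array, with the floor of 21.4 as a dashed line. UBE2D3-AS1 is highest at 42 °C, 0 h (118) and UBE2O lies under the floor only at 44 °C, 12 h (2.60).

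No UBE2 gene passed the rule at 44 °C, 0 h or at 44 °C, 6 h against the control. At 44 °C, 0 h 2.32% of all genes rose and 0.668% fell, and at 44 °C, 6 h 1.49% rose and 2.44% fell. With 26 genes these shares amount to less than 1 gene each way in every comparison but 1, so counts of 0 or 1 are near the background.

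The ubiquitin E2s with broad or histone-directed roles were UBE2A and UBE2B, which act in DNA damage tolerance with RAD18, UBE2D4, UBE2E1, UBE2E2, UBE2E3 and UBE2H. None of the 7 passed the rule in any of the 9 comparisons. Against the control their log2 differences after quantile normalization lay between -0.52 and 0.47. UBE2H, the partner of the CTLH ligase, had the widest range as deposited, with 342, 428 and 350 at 42 °C and 406, 298 and 183 at 44 °C, against 292 in the control. Its lowest array was 44 °C, 12 h, where the log2 difference from the control was -0.67 as deposited and -0.23 after quantile normalization. As deposited UBE2E3 had the narrowest range (UBE2B after quantile normalization), with 2053, 2091 and 2768 at 42 °C and 3108, 2618 and 2412 at 44 °C, against 2407 in the control.

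UBE2G1, UBE2G2, UBE2J1, UBE2J2, UBE2K and UBE2R2 build chains that send proteins to the proteasome, and UBE2G2, UBE2J1 and UBE2J2 do so for misfolded proteins of the endoplasmic reticulum. None of the 6 passed the rule. UBE2J2, a membrane-anchored enzyme, had 637, 969 and 1144 at 42 °C and 900, 868 and 430 at 44 °C, against 818 in the control. On the deposited scale alone it was 2.66-fold lower at 44 °C than at 42 °C after 12 h (log2 difference -1.41), one of 3 UBE2 genes past 2-fold there by that measure with UBE2O and UBE2Q2, where 14.4% of all genes were. After quantile normalization the difference was -0.82. Past 1.5-fold under all scalings it was lower there together with UBE2O, 2 UBE2 genes, where 9.62% of all genes were. Dimmer probe sets of UBE2J2 did not bear this out alike. In that comparison 1 gave 0.64 as deposited and 1.11 after quantile normalization, and another gave -0.47 and -0.23. The mean of its probe sets as deposited was -0.41, which does not pass 1.5-fold.

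As deposited UBE2G2 varied least in this group (UBE2K did after quantile normalization), with 359, 379 and 424 at 42 °C and 419, 374 and 285 at 44 °C, against 403 in the control. UBE2J1, the other membrane-anchored enzyme, had a log2 difference from the control of 0.70 at 44 °C, 12 h after quantile normalization, where UBE2J2 had -0.57. Its other bright probe sets gave -0.23, 0.30, 0.22 and 0.35 on that scale, and the mean of probe sets as deposited was -0.10 for UBE2J1 and -0.74 for UBE2J2. UBE2G1 had -0.43, -0.36 and -0.45 on the 44 °C arrays at 0, 6 and 12 h on that scale. As deposited its values there were 0.02, -0.28 and -0.63, so the first of them changes sign with the scaling.

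UBE2N builds chains used in signalling and DNA repair, and UBE2V2 is an inactive E2 relative that pairs with it to set that linkage. UBE2N had 4634, 5802 and 5272 at 42 °C and 7195, 5597 and 4494 at 44 °C, against 5070 in the control. By its chosen probe set the 7 values spanned 0.20 log2 units after quantile normalization, the narrowest range of the 25 bright UBE2 genes. The chosen probe set carries the manufacturer's suffix x_at, which marks probes that can also bind other transcripts. Other bright probe sets of UBE2N differed more from the control on that scale, 1 from -0.24 to 0.10 and 1 from -0.24 to 0.06. UBE2V2 had 2654, 3194 and 3377 at 42 °C and 2324, 3038 and 1922 at 44 °C, against 2868 in the control. The pair parted at 44 °C, 0 h, where the log2 difference of UBE2V2 from the control was -0.30 as deposited and -0.77 after quantile normalization, while UBE2N had 0.51 and 0.01.

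UBE2C and UBE2S start and extend the chains that the anaphase-promoting complex places on its substrates, and UBE2T works with the Fanconi anaemia ligase in crosslink repair. None of the 3 passed the rule, and after quantile normalization their differences from the control lay between -0.28 and 0.37. UBE2S varied most of the 3, with 4283, 5738 and 6965 at 42 °C and 6233, 4734 and 4261 at 44 °C, against 4862 in the control. Its highest array was 42 °C, 12 h, at 0.52 above the control as deposited and 0.37 after quantile normalization. UBE2C had 0.53 and 0.36 on the same array. UBE2T varied least of all bright UBE2 genes as deposited, over 0.49 log2 units, with 1543, 2015 and 1839 at 42 °C and 2152, 1604 and 1528 at 44 °C, against 1847 in the control.

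UBE2F carries NEDD8, UBE2L6 carries the interferon-induced modifier ISG15 and also ubiquitin, and UBE2Z works with the E1 enzyme UBA6. UBE2L6 had 254, 229 and 281 at 42 °C and 445, 295 and 258 at 44 °C, against 214 in the control. All 6 heated arrays were above the control as deposited, and after quantile normalization 5 were, with -0.18 at 42 °C, 6 h. At 44 °C, 0 h it was 2.08-fold higher as deposited and 1.69-fold after quantile normalization, so it did not pass the rule, and on the deposited scale alone 9.82% of all genes were at least 2-fold higher there. It was the only UBE2 gene past 1.5-fold under all scalings on that array, where 10.7% of all genes were higher by that measure. After quantile normalization its log2 differences at 44 °C were 0.76, 0.61 and 0.73, against 0.41, -0.18 and 0.23 at 42 °C. ISG15 itself had 582, 700 and 611 at 42 °C and 817, 491 and 459 at 44 °C, against 461 in the control, and did not pass the rule.

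UBE2F had 707, 770 and 842 at 42 °C and 1040, 946 and 903 at 44 °C, against 734 in the control. Its difference at 44 °C, 12 h was 0.30 as deposited and 0.59 after quantile normalization. By its chosen probe set UBE2Z spanned 0.22 log2 units over the 7 arrays after quantile normalization and 0.65 as deposited. Its other bright probe set differed more from the control after quantile normalization, from -0.26 at 42 °C, 0 h to 0.48 at 44 °C, 0 h. UBE2Q1 and UBE2Q2, E2s with a long extension ahead of the catalytic domain, did not pass the rule. UBE2Q1 had 780, 1238 and 1039 at 42 °C and 1084, 844 and 743 at 44 °C, against 1046 in the control. UBE2Q2 had 383 at 44 °C, 12 h, its lowest array, against 835 at 42 °C, 12 h, its highest, and 567 in the control. At 12 h the log2 difference of 44 °C from 42 °C was -1.12 as deposited (2.18-fold) and -0.51 after quantile normalization.

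**Figure D2:**
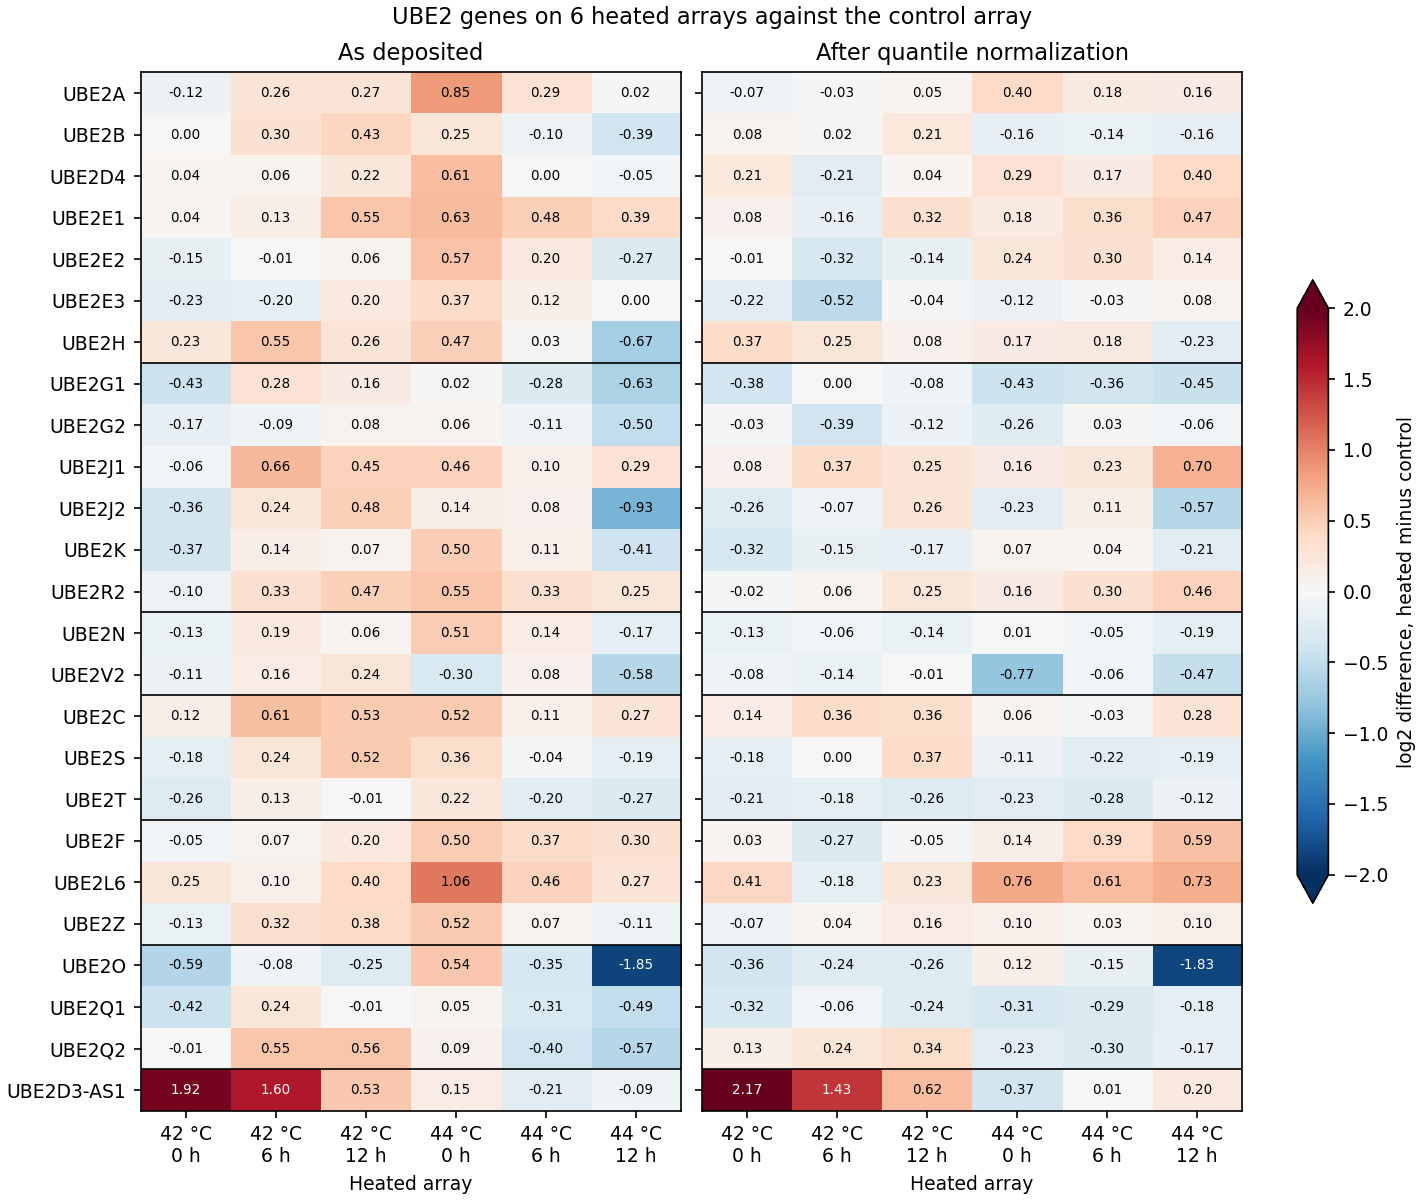
Log2 differences of the 25 bright UBE2 genes (rows, grouped by role with black lines) on the 6 heated arrays (columns) minus the control, as deposited at left and after quantile normalization at right, with red for higher and blue for lower in heated cells. The deepest colours are UBE2D3-AS1 at 42 °C, 0 and 6 h and UBE2O at 44 °C, 12 h, and the red column of the 44 °C, 0 h array as deposited pales after normalization.

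As deposited, UBE2 genes moved with the level of the array. Of the 25 bright genes, 13 were highest on the 44 °C, 0 h array, and 15 were lowest on the 44 °C, 12 h array. After quantile normalization 5 were highest on the first of these and 5 lowest on the second. The median UBE2 log2 difference from the control as deposited was -0.13, 0.22 and 0.25 at 42 °C (0, 6 and 12 h) and 0.47, 0.08 and -0.18 at 44 °C. Over all genes that reached the floor the medians were -0.07, 0.13 and 0.09 at 42 °C and 0.38, 0.00 and -0.16 at 44 °C, in the same order of times. After quantile normalization the UBE2 medians lay between -0.07 and 0.05 in these 6 comparisons, and between 0.01 and 0.07 at 44 °C against 42 °C. With shifted medians they were 0.24 and 0.27 at 44 °C, 6 and 12 h, where all genes had 0.03 and 0.10, and 0.24 and 0.21 at 44 °C against 42 °C after 6 and 12 h, where all genes had 0.10 each time.

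Most single UBE2 genes stayed near their control value on the quantile-normalized scale. After quantile normalization 25, 24 and 25 of the 26 genes were within 0.5 log2 units of the control at 42 °C after 0, 6 and 12 h, and 24, 25 and 21 were at 44 °C. Over all genes that reached the floor the shares were 78.9%, 77.8% and 82.4% at 42 °C and 71.2%, 73.4% and 68.3% at 44 °C. The 44 °C, 12 h array had the fewest UBE2 genes in this band.

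**Figure D3:**
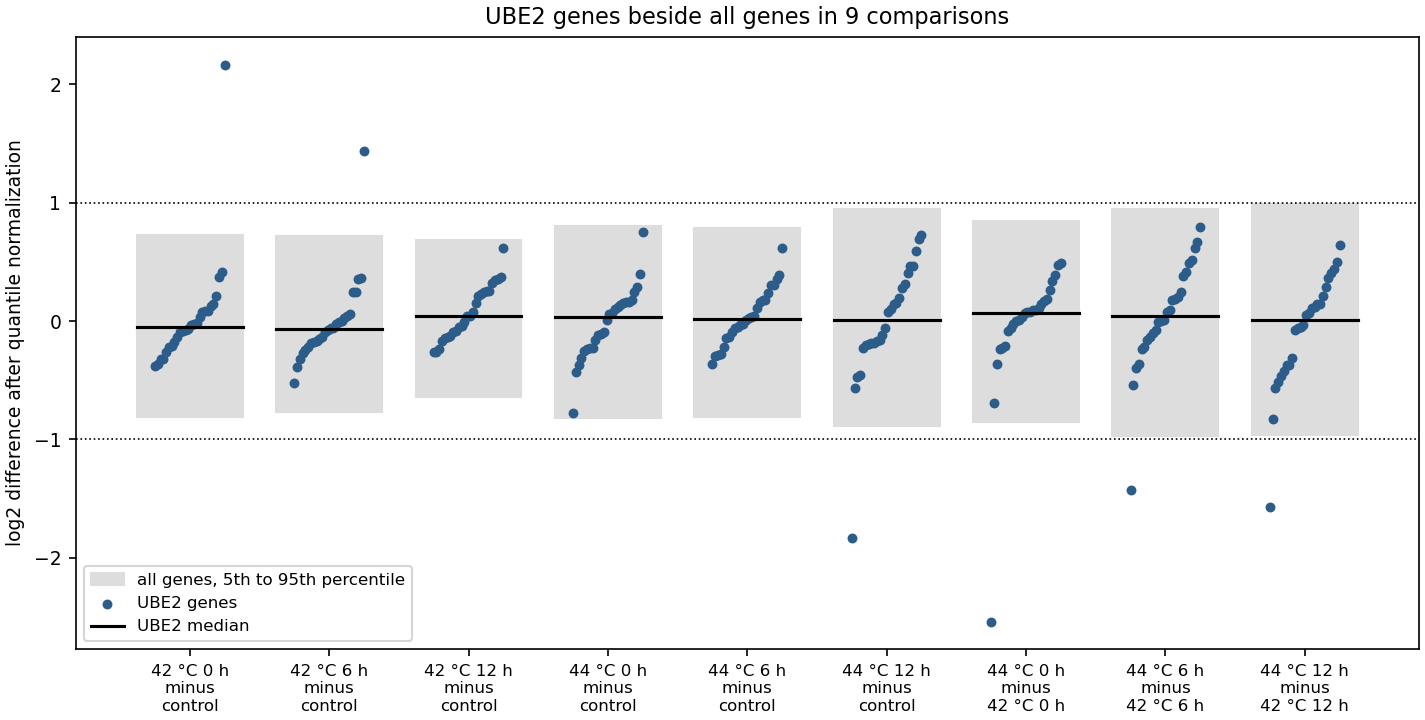
Log2 differences after quantile normalization of the 26 UBE2 genes that reached the floor (points, sorted within each column) in 9 comparisons, with their median (black line) and the 5th to 95th percentile of all 14973 genes (grey); dotted lines mark 2-fold. In 6 of the 9 columns 1 point lies outside the dotted lines, and it is UBE2D3-AS1 or UBE2O.

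Over the 7 arrays the bright UBE2 genes ranged over a median of 0.74 log2 units as deposited and 0.60 after quantile normalization. Over all 9681 bright genes the medians were 1.10 and 0.82. After quantile normalization 23 of the 25 (92%) ranged over less than 1 log2 unit, against 65.8% of all bright genes. UBE2 genes were also brighter, with a median of mean intensities of 1400 against 345. In a comparison chosen after seeing the data, restricted to genes at least as bright as 1400, 13 of 13 UBE2 genes and 91.8% of 1655 genes ranged over less than 1 log2 unit, with medians of 0.45 and 0.49. As deposited the shares were 100% and 78.9% with medians of 0.68 and 0.77, and with shifted medians 100% and 88.8% with medians of 0.47 and 0.69.

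Probe sets of the same UBE2 gene gave a measure of how far a value depends on the probes. For 12 genes with at least 2 probe sets that were bright on all arrays, the median gap between the 26 other probe sets and the chosen one was 0.12 to 0.31 log2 units over the 9 comparisons. At 44 °C, 12 h against the control the probe sets differed in sign for 5 of the 12 genes, and UBE2F was widest apart, at 0.30, -0.60 and 0.43. The 5 UBE2J1 probe sets gave 0.29 for the chosen one and -0.67, -0.15, -0.25 and -0.10 for the others. The other 7 of the 12 genes were below the control by every such probe set as deposited. They were UBE2B (-0.39, -0.33, -0.73 and -1.21), UBE2G2 (-0.50, -0.84 and -1.14), UBE2K (-0.41, -0.39 and -0.90), UBE2G1 (-0.63, -0.56 and -0.84), UBE2H, UBE2N and UBE2Z. The median over all genes on that array was -0.16, and its median shift over probe sets never under the floor was -0.35. After quantile normalization only UBE2G1 and UBE2G2 of these 7 were below the control by every such probe set. At 42 °C, 12 h signs differed for 2 of the 12 genes.

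**Figure D4:**
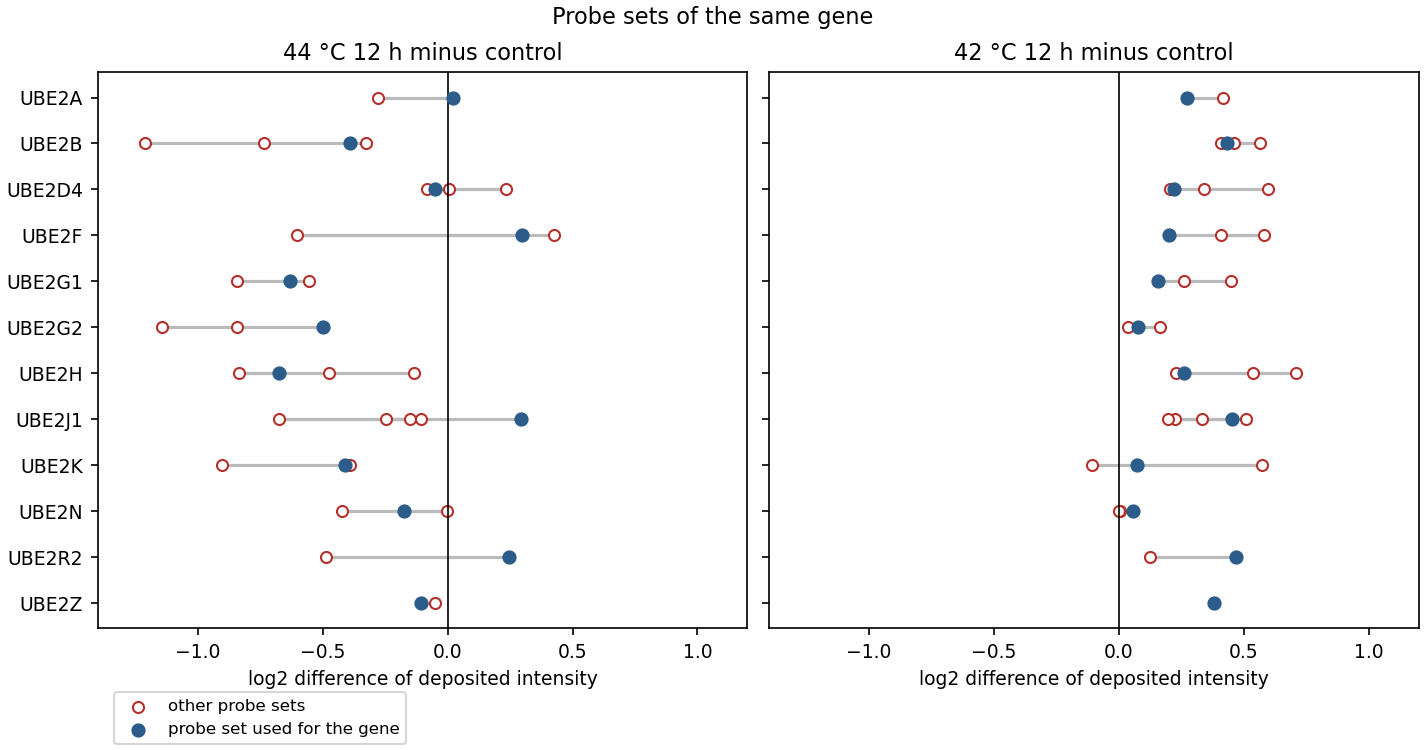
Log2 difference of deposited intensity from the control for each bright probe set (points) of 12 UBE2 genes (rows), at 44 °C, 12 h (left) and 42 °C, 12 h (right); filled points are the probe sets used for the gene and open points the others. Points spread more widely at left, by up to 1.03 log2 units for UBE2F.

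The enzymes that act before and after the E2s were described by the same rule. Against the 17.3% of all genes that passed in any of the 9 comparisons, their counts were as follows. Of 10 listed E1 activating enzymes 7 reached the floor and 1 passed in any comparison. This was MOCS3, which activates the ubiquitin-like URM1, with 71.9, 178 and 153 at 42 °C and 107, 60.8 and 47.3 at 44 °C, against 147 in the control. It fell at 44 °C, 6 and 12 h against the control and was lower there than at 42 °C. The E1 enzymes for ubiquitin, UBA1 and UBA6, did not pass. None of 8 E2 proteins with other names, such as CDC34, passed in any comparison. Of 13 ubiquitin and ubiquitin-like genes 7 reached the floor and 0 passed, including the heat-inducible polyubiquitin gene UBB, with 15393, 11833 and 11809 at 42 °C and 16259, 15603 and 17015 at 44 °C, against 11758 in the control.

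Of 29 listed E3 partners 26 reached the floor and 1 passed. TRAF6, a signalling ligase that uses UBE2N, was lower at 44 °C (120) than at 42 °C (379) after 6 h, with 156 in the control. Among 16 genes of the anaphase-promoting complex 15 reached the floor and 1 passed: the activator FZR1 rose at 42 °C, 6 h, to 171 against 62.3 in the control. Of 24 deubiquitinases 21 reached the floor and 2 passed. TNFAIP3, an inhibitor of NF-kB signalling, fell at 42 °C, 0 h, to 451 against 2003 in the control, and was higher at 44 °C (1566) than at 42 °C (451) at that time. USP18, which removes ISG15, was higher at 44 °C (102) than at 42 °C (30.6) at 0 h, with 45.7 in the control.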

How the data were processed

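The authors deposited 1 table of intensity values for 54675 probe sets on 7 arrays, on a linear scale. The summary algorithm was not given in the sources used here, and per the labels the total RNA of 1 culture condition went on each array. All 7 columns belong to the study and 0 other columns were present. Here log2 was taken of the deposited intensity with values below 21.4, the pooled median, set to it. Quantile normalization was done on the log2 values, and the median shift was taken over 20902 probe sets. The array's annotation gave 41097 probe sets with 1 gene, 1801 with several and 11777 not listed. Of the first kind 41043 matched the gene table of GRCh38.p14, and 0 symbols changed. Of 19775 genes 14973 reached the floor.

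Genes named with values on all arrays were those past 2-fold under all 3 scalings in any of the 9 comparisons and, in each role group, the genes with the largest and smallest range as deposited among those reaching 4 times the floor. From each pathway list up to 3 genes with the largest called changes were named. ISG15, UBB and the values given for other UBE2 genes (UBE2B, UBE2C, UBE2G1, UBE2J1, UBE2K, UBE2Q2 and UBE2Z) fell outside this rule and were chosen after their values were seen. The members and lists were chosen with earlier results of these data known. Alternatives were each scaling alone, no floor, bright genes only, the mean of a gene's probe sets and a 1.5-fold threshold. With 1 array per condition no test was possible, and the number of arrays limits the precision. Computation used Python 3.11.15, numpy 2.4.6, pandas 2.3.3 and matplotlib 3.10.9, and the calling steps were tested on simulated data.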

Additional observations from a re-analysis of the deposited data

How the results depend on the processing

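With quantile normalization alone or the median shift alone, each of the 9 counts of UBE2 genes past 2-fold was the same as under all 3 scalings together. On the deposited scale alone the count was 1 at 44 °C, 0 h (UBE2L6), 2 at 44 °C against 42 °C, 0 h, and 3 at 44 °C against 42 °C, 12 h. Without a floor it was 3, 3 and 1 at 42 °C (0, 6 and 12 h), 1, 1 and 2 at 44 °C, and 2, 3 and 3 at 44 °C against 42 °C, where values under the floor enter the fold. With the mean of probe sets UBE2O no longer passed at 44 °C, 12 h, leaving 0. Among bright genes only, the count was 0 at 44 °C, 12 h and 0 at 44 °C against 42 °C, 12 h, since UBE2O was too dim there. At 1.5-fold it was 1 at 44 °C, 0 h and 2 at 44 °C against 42 °C, 12 h. The UBE2 median minus the median of all genes at 42 °C, 6 h was 0.09 as deposited, -0.066 with quantile normalization and -0.067 with shifted medians, and the cause was not tested. Over the 9 comparisons this difference lay between -0.14 and 0.16 as deposited, -0.066 and 0.072 with quantile normalization and -0.067 and 0.22 with shifted medians, and its sign changed in 5 comparisons under each of these scalings, in 3 without a floor and in 1 with averaged probe sets. Of 117 differences of the 13 named genes, 40 changed sign with quantile-normalized values and 44 with shifted medians. When a gene's probe sets were averaged 13 did, and when no floor was set 0 did. None of the called differences changed sign, but under the 3 scalings the rule itself fixes this, since a call needs the same direction in each. No paired analysis was possible because each condition had 1 array. Values near the floor, such as those of UBE2D3-AS1 outside 42 °C, are limited by signal over background.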

Other observations

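Pseudogenes with a UBE2 symbol were left out of the group, and 4 had a single-gene probe set. UBE2NL, a copy of UBE2N, read 499, 524 and 480 at 42 °C (0, 6 and 12 h) and 596, 582 and 416 at 44 °C, against 500 in the control, with a probe set marked x_at, so UBE2N transcripts and this copy cannot be told apart. Intensities of UBE2DNL and UBE2Q2P13 were below the floor on all 7 arrays. UBE2Q2P16 read 8.52, 20.0 and 19.0 at 42 °C and 26.0, 21.5 and 17.6 at 44 °C, against 35.2 in the control.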
